A study of Homo sapiens with 12 samples.

Results

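The ER-associated degradation (ERAD) machinery was followed here through 10 genes, HERPUD1, SYVN1, SEL1L, DERL1, DERL2, DERL3, EDEM1, EDEM2, EDEM3 and OS9, which were found by gene name in the expression tables of the SCC15 and SCC25 cell lines. They were 10 of the 34227 genes listed in either table. RNA had been sequenced from SCC15 and SCC25, wild-type oral squamous cancer cell lines of human origin, after 24 h with ACGs (annonaceous acetogenins, here squamocin at 10 µg/mL) or with the solvent DMSO. Each cell line had 3 libraries with ACGs and 3 with DMSO, 12 in all. The sources used here do not say whether libraries of a group came from separate cultures, so p-values measure only the spread between these samples, which may be technical.

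ERAD removes proteins that fail to fold in the endoplasmic reticulum (ER). Lectins and mannosidase-like proteins in the lumen pick out misfolded glycoproteins, a ubiquitin ligase complex in the membrane moves them into the cytosol and tags them, and the p97 ATPase pulls them out for the proteasome. Several of its genes are classical targets of the unfolded protein response, the transcriptional programme that follows ER stress.

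The values are normalized counts, that is reads per gene divided by 1 size factor per library, and the libraries held 16665563 to 22748845 reads on genes. The 2 tables were scaled separately, so levels of the lines are set side by side and tests were run within a line or on the difference of responses. Replicates of a group differed by 1.67 to 9.95 in chi-square per degree of freedom, except that ACGs replicate 3 of SCC15 differed from replicates 1 and 2 by 64.1 and 56.8. Without this library, the SCC15 log2 changes given further on were 2.95 for HERPUD1, 0.34 for DERL1, 0.43 for EDEM1, 0.13 for EDEM2, -1.39 for EDEM3 and 0.66 for OS9, and those of SYVN1, SEL1L, DERL2 and DERL3 stand beside their results. Of 6 squamous epithelial markers, SCC25 held all, whereas SCC15 held KRT14 (752 to 1912 normalized counts), CDH1 (428 to 568) and KRT6A (112 to 139) but almost no KRT5 (2.49 to 13.1), EPCAM (2.28 to 14.9) or TP63 (6.22 to 22.7), so the SCC15 libraries only partly match a squamous epithelial label. Immune markers were at most 27.0 in every library, while among fibroblast and endothelial markers COL3A1 (248 to 474), COL1A1 (97.1 to 158) and PECAM1 (63.8 to 174) were present in SCC15 and COL1A1 (554 to 1040), PDGFRB (164 to 196), CDH5 (10.4 to 179.7) and, in some libraries, PECAM1 (0 to 81.9) in SCC25. Their part in the results was not tested.

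HERPUD1 was the member with the largest response in both lines, about 8.25-fold higher with ACGs in SCC15 and 9.76-fold in SCC25, and DERL1, DERL2 and EDEM1 were also higher with ACGs in both, although DERL1 (-0.091) and EDEM1 (-0.093) in SCC15 turned negative on the log2 scale, and were not called, when libraries were scaled to equal totals. SYVN1 and OS9 were called in opposite directions in the lines, higher in SCC15 and lower in SCC25. With equal library totals, SYVN1 (0.15 log2) and OS9 (0.20) were not called in SCC15, so neither had opposite calls under that scaling. EDEM3 was lower in SCC15, and SEL1L was higher in SCC25. With limma and a Benjamini-Hochberg adjusted p threshold of 0.05, 7 of the 10 members were higher and 1 lower with ACGs in SCC15, where 30.9% and 30% of the 15902 genes tested were called higher and lower. In SCC25, 5 of the 9 members tested were higher and 2 lower, where 38.3% and 38.5% of the 16539 genes tested were called. In either direction, 8 of 10 members were called in SCC15 and 7 of 9 in SCC25, against 61% and 76.8% of genes. The libraries of the 2 treatments did not overlap for 9 of 10 members in SCC15 and 7 of 9 in SCC25, against 70.6% and 79% of genes, and the SCC25 shares stand near those of the genes at large. The members higher in both lines were 4 of 9, against 22.1% of the 14454 genes tested in both, and 2 of 9 had opposite calls, against 10.1%. The median response of the members, as log2 of ACGs over DMSO, was 0.53 in SCC15 and 0.53 in SCC25, with medians over all genes tested of 0.012 and -0.015. In RNA from bulk cultures, fewer cells that express a gene and less of its RNA per cell cannot be told apart.

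The total of normalized counts per SCC15 library was 15466464 to 15535484 with DMSO and 20467856 to 24626253 with ACGs, so the choice of scaling matters for small changes. When libraries were instead scaled to equal totals, the median over all genes was -0.48 in SCC15 and -0.22 in SCC25. A change of scaling moves all genes of a comparison by about the same amount, so a member's value relative to that median, such as 0.39 for DERL1 and 3.03 for HERPUD1 in SCC15, is nearly fixed by construction and says nothing about stability. Under equal totals, 3 members were called higher in SCC15 (HERPUD1, DERL2 and DERL3) and 2 lower (EDEM3 and EDEM2), and the SCC25 calls were 5 higher and 3 lower. Over all genes, that scaling called 2357 higher and 8032 lower in SCC15 and 5032 and 7839 in SCC25, against 4921 and 4773, and 6335 and 6367, with the authors' factors.

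**Figure D1:**
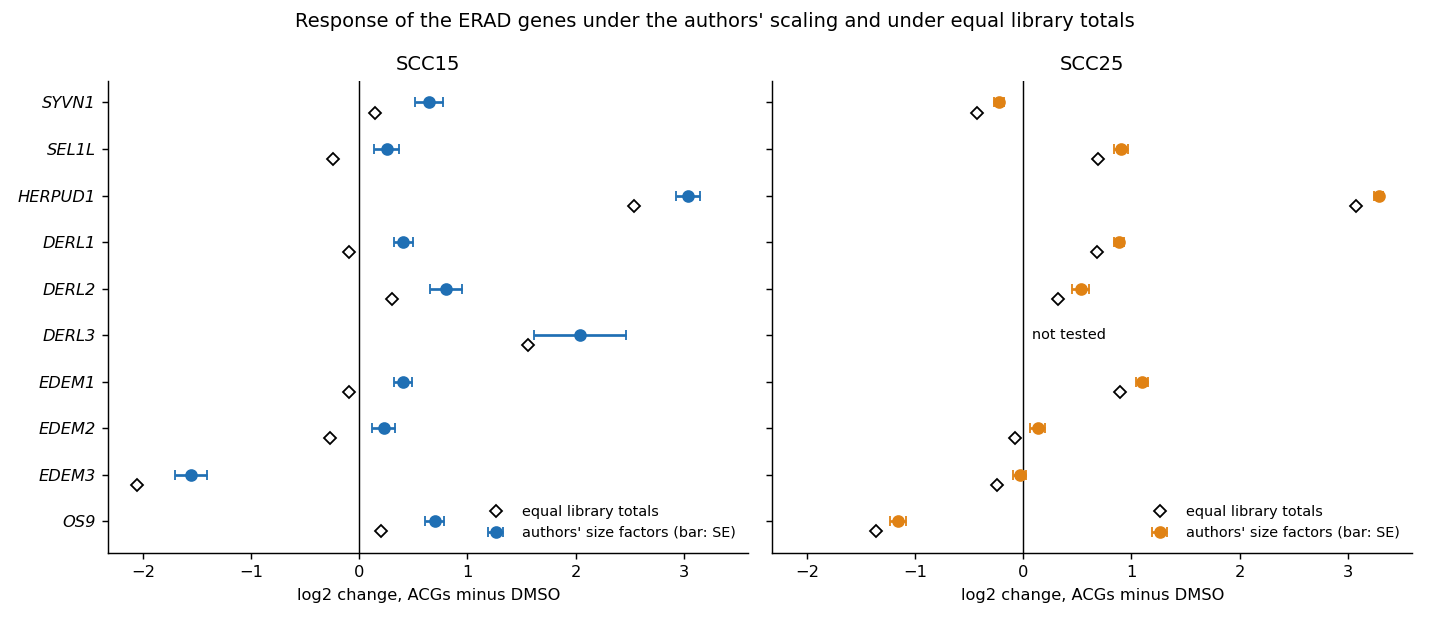
Log2 change (ACGs minus DMSO) of each ERAD gene in SCC15 (left) and SCC25 (right), with circles for the authors' scaling (bars, SE from limma, 3 libraries a group) and open diamonds for equal library totals. HERPUD1 lies highest in both lines under either scaling, at 3.04 (2.54 with equal totals) in SCC15 and 3.29 (3.08) in SCC25, while SEL1L, DERL1, EDEM1 and EDEM2 in SCC15 and EDEM2 in SCC25 lie above 0 with the authors' scaling and below 0 with equal totals.

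The membrane ligase complex is built around SYVN1, also known as HRD1, the RING ubiquitin ligase of the ER membrane, with SEL1L, the adaptor that stabilises it and receives substrates from the lumen, and HERPUD1, a ubiquitin-like-domain protein of the membrane that joins the complex under stress. Their promoters are shown because the 3 genes gave 3 different patterns, together with that of OS9, which also differed between the lines. The sequences are from RefSeq (GRCh38.p14), 250 bases before to 50 after the start site, read 5′ to 3′ on the gene's strand. Of the 10 members, 8 had an entry. Capitals mark the ER stress element ERSE-II (ATTGG, 1 free base and CCACG), the C/EBP-ATF element CARE (TGATGNAA) and CCACG, the 3′ part of the ER stress element, on either strand. The HERPUD1 promoter lies at chr16:56931892-56932191 (plus strand), that of SYVN1 at chr11:65134470-65134769 (minus), that of SEL1L at chr14:81533804-81534103 (minus) and that of OS9 at chr12:57693882-57694181 (plus).
HERPUD1: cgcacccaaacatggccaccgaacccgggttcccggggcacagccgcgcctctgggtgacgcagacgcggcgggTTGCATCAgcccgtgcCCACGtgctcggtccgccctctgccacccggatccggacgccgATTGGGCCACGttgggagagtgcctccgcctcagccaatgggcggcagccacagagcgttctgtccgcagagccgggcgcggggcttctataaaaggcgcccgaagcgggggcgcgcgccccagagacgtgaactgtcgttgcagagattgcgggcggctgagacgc
SYVN1: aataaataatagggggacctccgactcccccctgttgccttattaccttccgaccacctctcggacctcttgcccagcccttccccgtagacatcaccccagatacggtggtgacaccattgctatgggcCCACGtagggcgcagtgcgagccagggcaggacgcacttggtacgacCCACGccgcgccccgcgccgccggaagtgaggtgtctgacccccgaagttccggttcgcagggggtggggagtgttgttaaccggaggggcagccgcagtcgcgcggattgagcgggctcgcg
SEL1L: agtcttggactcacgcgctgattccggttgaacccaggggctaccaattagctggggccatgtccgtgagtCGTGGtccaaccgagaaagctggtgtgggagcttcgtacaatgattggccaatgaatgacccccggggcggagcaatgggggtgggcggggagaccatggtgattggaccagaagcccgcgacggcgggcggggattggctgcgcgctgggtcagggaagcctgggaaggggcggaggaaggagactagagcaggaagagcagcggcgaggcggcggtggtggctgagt
OS9: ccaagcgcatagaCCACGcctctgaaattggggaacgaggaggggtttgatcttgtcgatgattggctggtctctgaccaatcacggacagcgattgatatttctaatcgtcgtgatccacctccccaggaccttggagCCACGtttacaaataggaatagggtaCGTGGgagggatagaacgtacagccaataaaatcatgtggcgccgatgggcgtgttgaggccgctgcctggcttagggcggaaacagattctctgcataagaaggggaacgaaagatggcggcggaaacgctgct

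HERPUD1 was the only one of the 8 promoters with a match to ERSE-II, at -117 to -107 from the start site, a motif found in 0.0549% of 27305 promoters of the same length. It also held CARE on the reverse strand, at -176 to -169, as did 3.67% of promoters. CCACG, which overlaps ERSE-II, was present in 6 of the 8 (HERPUD1, SYVN1, SEL1L, OS9, EDEM1 and EDEM3), against 37.9% of promoters. The full ERSE is CCAAT, 9 free bases and CCACG (in 0.0806% of promoters), and TGACGTGG is the element bound by XBP1 (0.795%). Both had an exact match in 0 of the 8 windows on either strand. Near matches were not counted, such as ccaatgggcggcagccaca in HERPUD1, which differs from ERSE in its last base. A match describes the letters and does not show a site in use.

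HERPUD1 (ENSG00000051108, chr16:56932048-56944863 in GRCh38) gave 1577, 1504 and 1594 normalized counts in the SCC15 libraries with DMSO and 12625, 11432 and 14525 with ACGs. In SCC25 it gave 1195, 1168 and 1229.5 with DMSO and 11664, 11282 and 12112 with ACGs. The groups were far apart in both lines, and no ACGs library came near a DMSO library. On the log2 scale the change was 3.04 (SE 0.11) in SCC15, limma adjusted p = 5.5e-06, and 3.29 (SE 0.043) in SCC25, adjusted p = 1.51e-14. Only 142 of the 15902 genes tested in SCC15 and 140 of the 16539 in SCC25 had a larger log2 change, and 55 of the 14454 genes tested in both (0.381%) lay above 3 in both lines.

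SYVN1 (ENSG00000162298, chr11:65121780-65134533) moved in opposite directions in the lines. In SCC15 it gave 1146, 1064 and 1126 normalized counts with DMSO and 2005, 1839.8 and 1422 with ACGs, and in SCC25 2859, 2797 and 2834 with DMSO and 2402, 2320 and 2561 with ACGs. The groups did not overlap in either line, but ACGs replicate 3 of SCC15 was the lowest of its group. The response was 0.64 log2 (SE 0.13, limma adjusted p = 0.00447) in SCC15 and -0.22 (SE 0.046, adjusted p = 0.000788) in SCC25. Without ACGs replicate 3 the SCC15 value was 0.79, and with equal totals it was 0.15 and did not pass the threshold.

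SEL1L (ENSG00000071537, chr14:81471549-81533861) was higher with ACGs in SCC25, with 1824, 1818 and 1838.5 normalized counts with DMSO and 3607, 3694 and 2992 with ACGs. In SCC15 it gave 2537, 2566 and 2689 with DMSO and 3409, 3318 and 2618 with ACGs, and there ACGs replicate 3 lay within the DMSO range while the other ACGs libraries lay above it. This was a log2 change of 0.90 (SE 0.068, limma adjusted p = 8.44e-08) in SCC25. In SCC15 it was 0.25 (SE 0.12, adjusted p = 0.0946), 0.37 and past the threshold without ACGs replicate 3, and -0.25 and not past it with equal library totals.

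**Figure D2:**
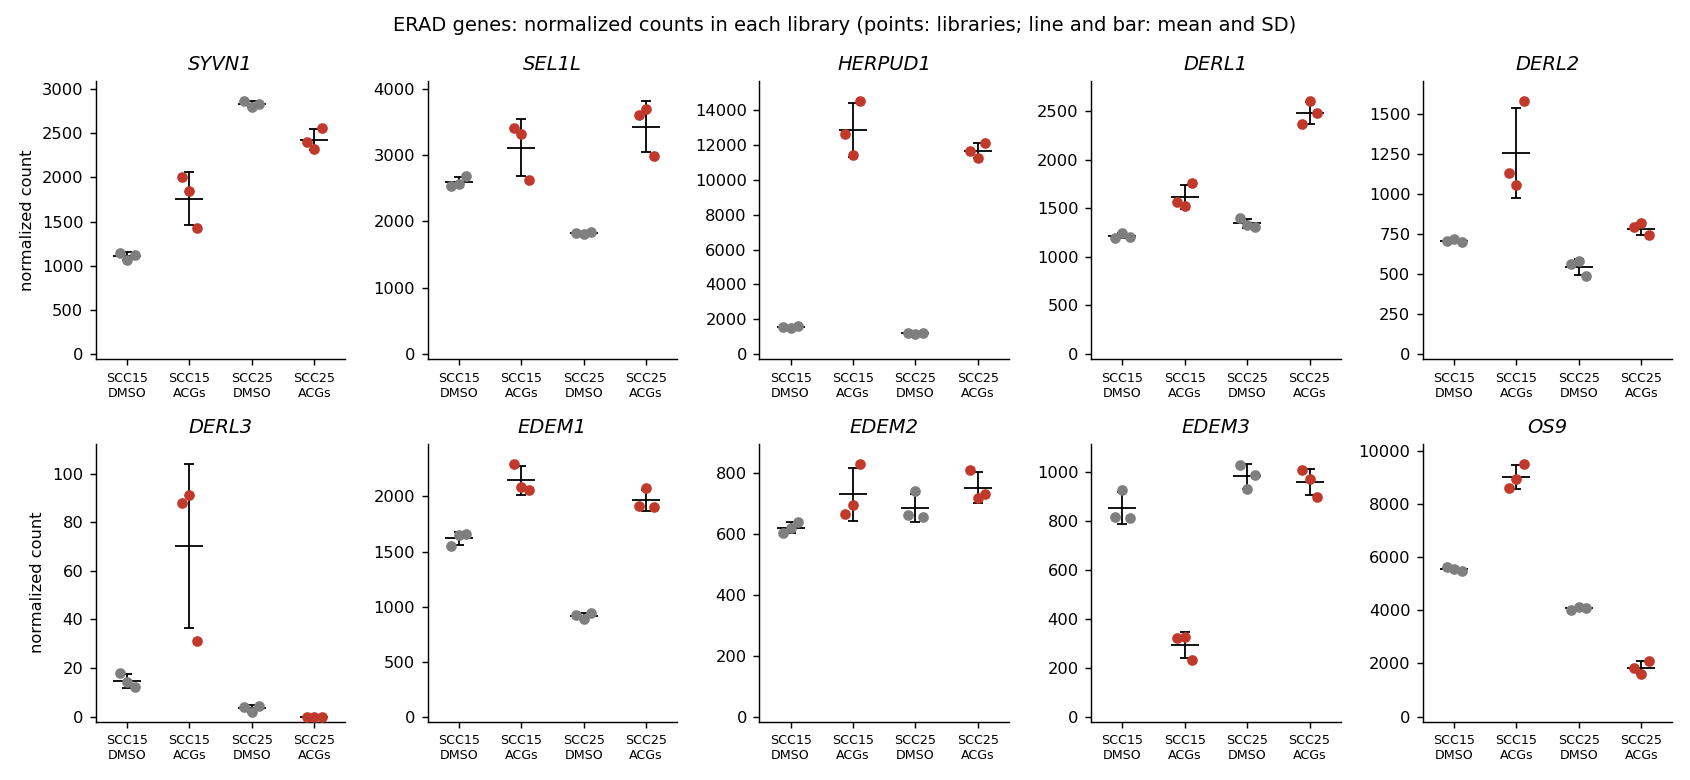
Normalized counts of the 10 ERAD genes in each of the 12 libraries (points; grey, DMSO; red, ACGs), with the mean (line) and SD (bar) of the 3 libraries of a group and the axis of each panel starting at 0. HERPUD1 separates the treatments most clearly, from 1504 to 1594 with DMSO to 11432 to 14525 with ACGs in SCC15, and OS9 is higher with ACGs in SCC15 (at 0.70 log2, or 0.20 and not called with equal library totals) and lower in SCC25.

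Ratios of members within a library do not depend on the size factor, and their changes do not depend on gene length. The log2 ratio of HERPUD1 to SYVN1 (counts per kb of exon) was 0.61 ± 0.022 with DMSO and 3.00 ± 0.41 with ACGs in SCC15, and -1.12 ± 0.031 and 2.39 ± 0.023 in SCC25 (SD, n = 3). With the exon lengths used, HERPUD1 transcripts thus went from below to above those of their ligase partner in SCC25. The ratio of SEL1L to SYVN1 changed in opposite directions, from 0.43 ± 0.067 to 0.034 ± 0.060 in SCC15 and from -1.43 ± 0.015 to -0.30 ± 0.24 in SCC25. It came closer to equal levels in both lines, which, unlike the changes, depends on the exon lengths used. ACGs and DMSO libraries did not overlap in any of these 4 comparisons, and the two-sided exact permutation test gave p = 0.1 for each, the smallest p that 3 against 3 allows.

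**Figure D3:**
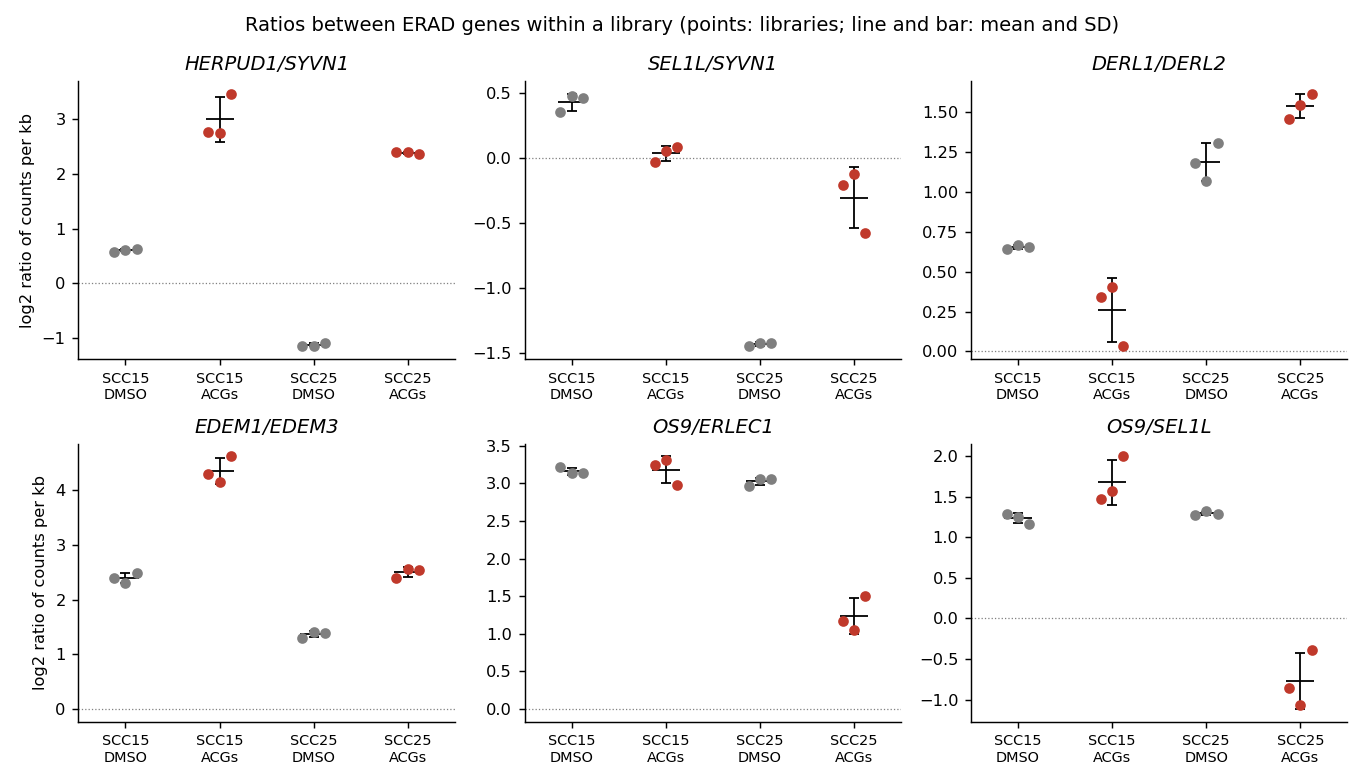
Log2 ratio of counts per kb for 6 pairs of ERAD genes within each library (points; grey, DMSO; red, ACGs; line and bar, mean and SD of 3 libraries). The ratio of OS9 to SEL1L was 1.23 and 1.29 with DMSO and separated with ACGs, to 1.68 in SCC15 and -0.77 in SCC25.

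The derlins are membrane proteins related to rhomboid proteases that help to move substrates out of the ER. DERL1 (ENSG00000136986, chr8:123013164-123042423) gave 1196, 1244.5 and 1206 normalized counts with DMSO and 1560.3, 1526 and 1757 with ACGs in SCC15, and 1394, 1327 and 1306.5 with DMSO and 2369, 2599.7 and 2475 with ACGs in SCC25. Every ACGs library lay above every DMSO library in both lines. DERL1 changed by 0.89 log2 (SE 0.050, limma adjusted p = 5.8e-09) in SCC25 and 0.41 (SE 0.087, adjusted p = 0.00525) in SCC15, where equal library totals gave -0.091, not past the threshold.

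DERL2 (ENSG00000072849, chr17:5471251-5486811) gave 703, 720.3 and 702 normalized counts with DMSO and 1132.5, 1057 and 1578 with ACGs in SCC15, and 564, 580.2 and 484 with DMSO and 790.6, 816 and 743 with ACGs in SCC25. ACGs was above DMSO in every library of both lines, and ACGs replicate 3 of SCC15 was well above its group. The log2 change was 0.80 (SE 0.15, limma adjusted p = 0.00288) in SCC15, or 0.63 without that library, and 0.53 (SE 0.077, adjusted p = 3.69e-05) in SCC25. Within libraries, the log2 ratio of DERL1 to DERL2 changed by -0.40 in SCC15 and 0.35 in SCC25, with no overlap of the groups and an exact permutation p = 0.1 in each.

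DERL3 (ENSG00000099958, chr22:23834503-23839128), the least abundant derlin, gave 17.9, 14.2 and 12.2 normalized counts with DMSO and 88.1, 91.2 and 31.1 with ACGs in SCC15. These rested on 21, 18 and 14 reads with DMSO and 76, 80 and 25 with ACGs. The log2 change was 2.04 (SE 0.43, limma adjusted p = 0.00475), and 2.54 without ACGs replicate 3, the lowest of its group. In SCC25 it had 5, 2 and 5 reads with DMSO and 0 in each ACGs library, which allows up to 3 reads a library, and it was below the mean of 10 normalized counts needed for a test. In GENCODE release 44, 77% of its exonic bases overlap SMARCB1, a chromatin remodelling subunit on the opposite strand. SMARCB1 gave 1611, 1657 and 1472 with DMSO and 2396, 2459.9 and 3267 with ACGs in SCC15, so reads of the pair cannot be told apart if the counting ignored strand, which the sources used here do not give. ACGs replicate 3 of SCC15 was the highest of its group for SMARCB1 and the lowest for DERL3. In the SCC25 libraries with ACGs, where DERL3 had 0 reads, SMARCB1 gave 1624, 1756 and 1767.

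The EDEM proteins are mannosidase-like proteins that trim or recognise N-glycans on misfolded glycoproteins. EDEM1 (ENSG00000134109, chr3:5187646-5219957) gave 919.6, 889.6 and 941 normalized counts with DMSO and 1917, 2075 and 1903 with ACGs in SCC25, and 1550.1, 1652 and 1656 with DMSO and 2295, 2086 and 2058 with ACGs in SCC15. The groups did not overlap in either line. EDEM1 changed by 1.10 log2 (SE 0.053, limma adjusted p = 1.19e-09) in SCC25 and 0.41 (SE 0.084, adjusted p = 0.00459) in SCC15, where equal library totals gave -0.093, not past the threshold.

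EDEM3 (ENSG00000116406, chr1:184690231-184754913) was the member that was lower with ACGs in SCC15, with 816, 927 and 813 normalized counts with DMSO and 321, 325 and 231 with ACGs. In SCC25 it gave 1031, 929 and 987 with DMSO and 1007, 973 and 899 with ACGs, and the groups overlapped. The log2 change was -1.55 (SE 0.15, limma adjusted p = 0.000152) in SCC15 and -0.034 (SE 0.062, adjusted p = 0.633) in SCC25, where equal library totals gave -0.24, past the threshold. The log2 ratio of EDEM1 to EDEM3 within a library was higher with ACGs in both lines, by 1.96 in SCC15 and 1.13 in SCC25, with no overlap of the groups and an exact permutation p = 0.1 in each. That of EDEM1 to EDEM2 changed by 0.18 in SCC15, where the groups overlapped (exact permutation p = 0.4), and by 0.96 in SCC25, where they did not (exact permutation p = 0.1).

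EDEM2 (ENSG00000088298, chr20:35115357-35147364) did not pass the threshold in either line. It gave 602, 618 and 639 normalized counts with DMSO and 665, 693 and 829 with ACGs in SCC15, and 662, 738 and 653 with DMSO and 808, 716 and 729 with ACGs in SCC25. The groups overlapped in SCC25 and not in SCC15. The log2 change was 0.23 (SE 0.11, limma adjusted p = 0.0982) in SCC15, or 0.13 without ACGs replicate 3, and 0.13 (SE 0.071, adjusted p = 0.1) in SCC25, and with equal library totals -0.27, past the threshold, and -0.073.

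OS9 is a lectin of the ER lumen that reads trimmed glycans and hands substrates to SEL1L. OS9 (ENSG00000135506, chr12:57693955-57721557) gave 5618, 5555 and 5475 normalized counts with DMSO and 8597, 8921 and 9496 with ACGs in SCC15. In SCC25 it gave 4005, 4119.7 and 4081 with DMSO and 1820.1, 1603.5 and 2082 with ACGs. The groups were clearly apart in both lines and in opposite order. OS9 changed by 0.70 log2 (SE 0.086, limma adjusted p = 0.000445) in SCC15, and by -1.16 (SE 0.074, adjusted p = 1.73e-08) in SCC25, while equal library totals gave 0.20, not past the threshold, in SCC15. The exons of AGAP2-AS1 share 15.9% of the exonic bases of OS9 on the same strand in GENCODE release 44. In the deposited gene coordinates, OS9 and AGAP2-AS1 (chr12:57726271-57728356) do not overlap. AGAP2-AS1 was at 5.70 to 22.4 normalized counts in SCC15 and 2.66 to 18.7 in SCC25.

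ERLEC1, the lectin of the same class as OS9, changed in the same direction in both lines, by 0.68 (SE 0.13, limma adjusted p = 0.00284) in SCC15 and 0.63 (SE 0.054, adjusted p = 2.7e-07) in SCC25 on the log2 scale. Ratios of OS9 to ERLEC1 were taken on counts per kb of exon, so their level, unlike their change, depends on the exon lengths used. The log2 ratio was 3.16 ± 0.047 with DMSO and 3.18 ± 0.18 with ACGs in SCC15 (SD, n = 3, exact permutation p = 0.9). In SCC25 it was 3.03 ± 0.050 and 1.24 ± 0.24 (exact permutation p = 0.1, the smallest possible), with no overlap of the libraries.

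Levels of different genes were compared per kb of exon, over all exons that GENCODE release 44 gives a gene. Their order thus also depends on which isoforms are in use. How far these lengths match the annotation used for counting was not tested. With DMSO, OS9 led in SCC15 at 638 ± 8.21 normalized counts per kb (SD, n = 3), followed by EDEM2 (329), HERPUD1 (308), SEL1L (272), EDEM1 (240), SYVN1 (202), DERL1 (175), DERL2 (111), EDEM3 (45.9) and DERL3 (3.90), and no neighbours in this order overlapped. In SCC25 with DMSO, SYVN1 led at 515 ± 5.76, followed by OS9 (468), EDEM2 (363), HERPUD1 (236.5), DERL1 (193), SEL1L (191), EDEM1 (136), DERL2 (85.0), EDEM3 (52.9) and DERL3 (0.90), where DERL1 and SEL1L overlapped. With these lengths, SYVN1 stood at rank 6 in SCC15 and at rank 1 in SCC25, where its lead over OS9 may depend on the lengths used.

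With ACGs, HERPUD1 led in both lines, at 2541 ± 308 in SCC15 and 2309 ± 82.1 in SCC25. In SCC15 it was followed by OS9 (1036), EDEM2 (387), SEL1L (326), SYVN1 (319.5), EDEM1 (319), DERL1 (232), DERL2 (197), DERL3 (18.5) and EDEM3 (15.7), where the libraries overlapped between neighbours from EDEM2 to EDEM1, between DERL1 and DERL2, and between DERL3 and EDEM3. In SCC25 it was followed by SYVN1 (442), EDEM2 (399), SEL1L (359), DERL1 (357), EDEM1 (292), OS9 (211), DERL2 (123), EDEM3 (51.7) and DERL3 (0), with overlap between neighbours from SYVN1 to DERL1. HERPUD1 made up 13.2% of the summed level of the 10 genes with DMSO and 47.0% with ACGs in SCC15, and 10.55% and 50.8% in SCC25. OS9 went from 27.5% to 19.2% in SCC15 and from 20.9% to 4.64% in SCC25, and these shares do not depend on the size factor.

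**Figure D4:**
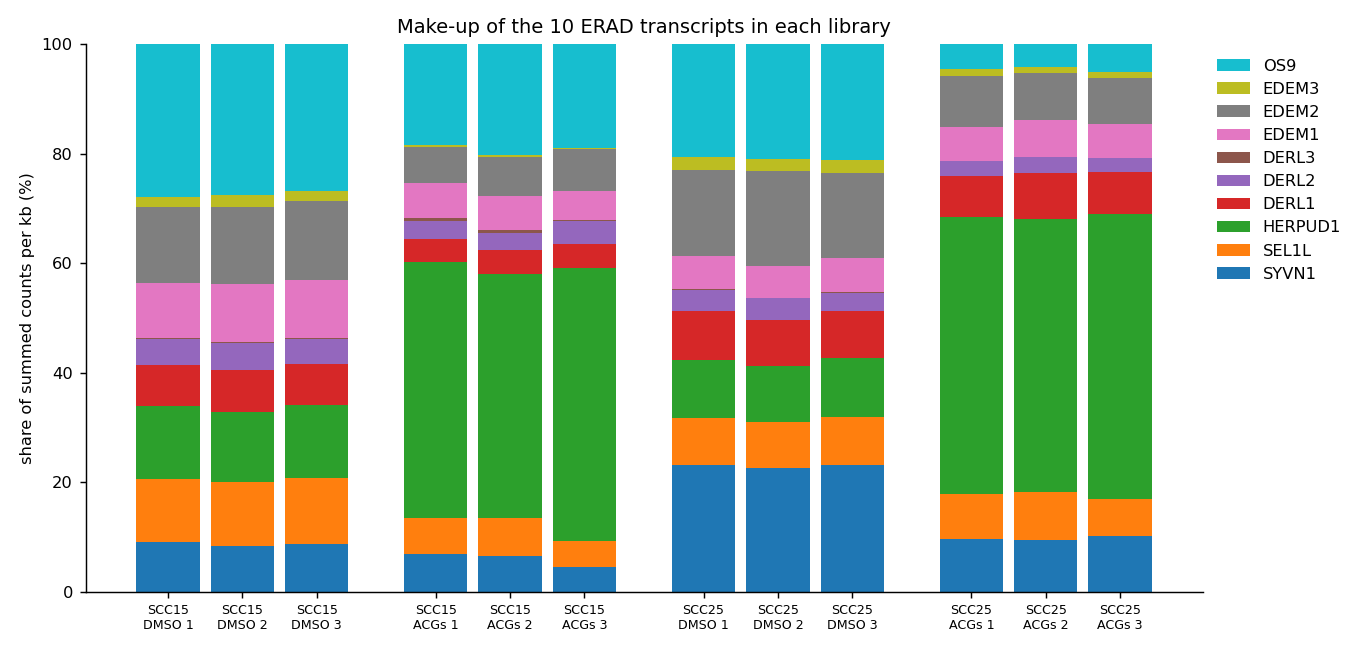
Share of each ERAD gene in the summed normalized counts per kb of the 10 genes, 1 bar per library and 3 libraries per group. HERPUD1 (green) takes 12.8% to 13.5% of the sum in the SCC15 DMSO libraries and 44.5% to 49.8% with ACGs, and 10.2% to 10.9% and 49.9% to 52.0% in SCC25.

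The responses of the lines were compared directly by a limma contrast over the 14454 genes tested in both. Of the 9 members tested, 6 differed between the lines at the threshold, against 52.2% of all genes tested. The response was larger in SCC15 than in SCC25 for OS9, by 1.85 log2 (SE 0.12, limma adjusted p = 1.45e-07), and for SYVN1, by 0.87 (SE 0.15, adjusted p = 0.000304). It was lower in SCC15 for EDEM3 (-1.52, SE 0.17, adjusted p = 1.11e-05), EDEM1 (-0.69, SE 0.097, adjusted p = 6.85e-05), SEL1L (-0.65, SE 0.15, adjusted p = 0.00228) and DERL1 (-0.48, SE 0.10, adjusted p = 0.00141). These 6 kept their direction and passed the threshold without ACGs replicate 3 of SCC15 and with equal library totals. HERPUD1 (-0.25, SE 0.12, limma adjusted p = 0.09), DERL2 (0.27, SE 0.18, adjusted p = 0.223) and EDEM2 (0.093, SE 0.13, adjusted p = 0.58) did not pass, although HERPUD1 did with TMM scaling, with equal library totals, with edgeR on the reads and without that library, at -0.54 to -0.28, and with equal library totals the differences of DERL2 and EDEM2 were -0.019 and -0.20. Without ACGs replicate 3 of SCC15 they were 0.095 and -0.0027.

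Other ERAD genes, in a list of 53 by role of which 52 were tested in both lines, give the wider pathway. Of the 52, 22 were higher and 8 lower with ACGs in SCC15, with 22 and 19 in SCC25, beside the 30.9%, 30%, 38.3% and 38.5% of all genes given above. Their median log2 change was 0.21 in SCC15 and 0.021 in SCC25. Of the 52, 14 were higher in both lines, 3 lower in both and 6 called in opposite directions, beside 22.1%, 18.6% and 10.1% of all genes tested in both. With equal library totals, 8 were called higher and 27 lower in SCC15, beside 2357 and 8032 of the 15902 genes tested. These shares with equal totals, and those of SCC25 with the authors' factors, are near those of the genes at large. With the authors' factors, the SCC15 share called higher was above that of all genes and the share called lower was below it. The share lower in both lines was also below that of all genes. These differences were not tested. Without ACGs replicate 3 of SCC15, 29 were called higher and 12 lower, beside 6103 and 5920 of the 15902.

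Among partners of the dislocation complex, 7 of 11 were higher and 2 lower in SCC15, with 6 and 4 in SCC25, and 3 had opposite calls. Counts of the role groups, here and below, stand beside 30.9% and 30% of all genes in SCC15 and 38.3% and 38.5% in SCC25. Opposite calls stand beside 10.1%. Those called higher in both lines include SELENOK, a selenoprotein of the ER membrane, at 1.44 (SE 0.19) and 1.16 (SE 0.072) on the log2 scale in SCC15 and SCC25, AUP1, which recruits a ubiquitin-conjugating enzyme, at 0.82 (SE 0.11) and 1.00 (SE 0.041), and TMUB1 at 1.04 (SE 0.24) and 0.73 (SE 0.055). In lumenal recognition and reduction, 2 of 8 were higher and 1 lower in SCC15, with 3 and 5 in SCC25. DNAJB9, a co-chaperone of BiP, was higher in both, at 1.25 (SE 0.13) and 2.08 (SE 0.061), and FOXRED2, a flavoprotein that binds SEL1L, was lower in both, at -1.69 (SE 0.18) and -1.16 (SE 0.087).

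Of p97 and its cofactors, 3 of 9 were higher and 1 lower in SCC15, with 3 and 4 in SCC25. UFD1, a substrate-binding cofactor, was higher in both lines, at 1.22 (SE 0.090) and 1.51 (SE 0.065), as was the deubiquitinase YOD1, at 0.79 (SE 0.11) and 2.05 (SE 0.074). FAF2, which recruits p97 to the ER membrane, was lower in both, at -1.17 (SE 0.080) and -0.11 (SE 0.045). Of the other ER membrane ligases, 2 of 9 were higher and 2 lower in SCC15, with 4 and 1 in SCC25, with RNF103 in opposite directions, at -0.76 (SE 0.11) and 0.30 (SE 0.089).

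Of the erlins, cytosolic chaperones and deglycosylation genes, 8 of 15 were higher and 2 lower in SCC15, with 6 and 5 in SCC25. The shuttle factors RAD23B, at 0.66 (SE 0.079) and 0.82 (SE 0.035), and UBQLN1, at 0.58 (SE 0.078) and 0.68 (SE 0.040), were higher in both lines. BAG6, a holdase for substrates in the cytosol, was higher in SCC15 and lower in SCC25 like SYVN1 and OS9, at 0.72 (SE 0.094) and -0.39 (SE 0.047). The genes named here from this list passed the limma threshold in both lines. With equal library totals they kept their direction, but BAG6, ERLEC1, RAD23B, UBQLN1 and YOD1 in SCC15 and RNF103 in SCC25 did not pass.

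**Figure D5:**
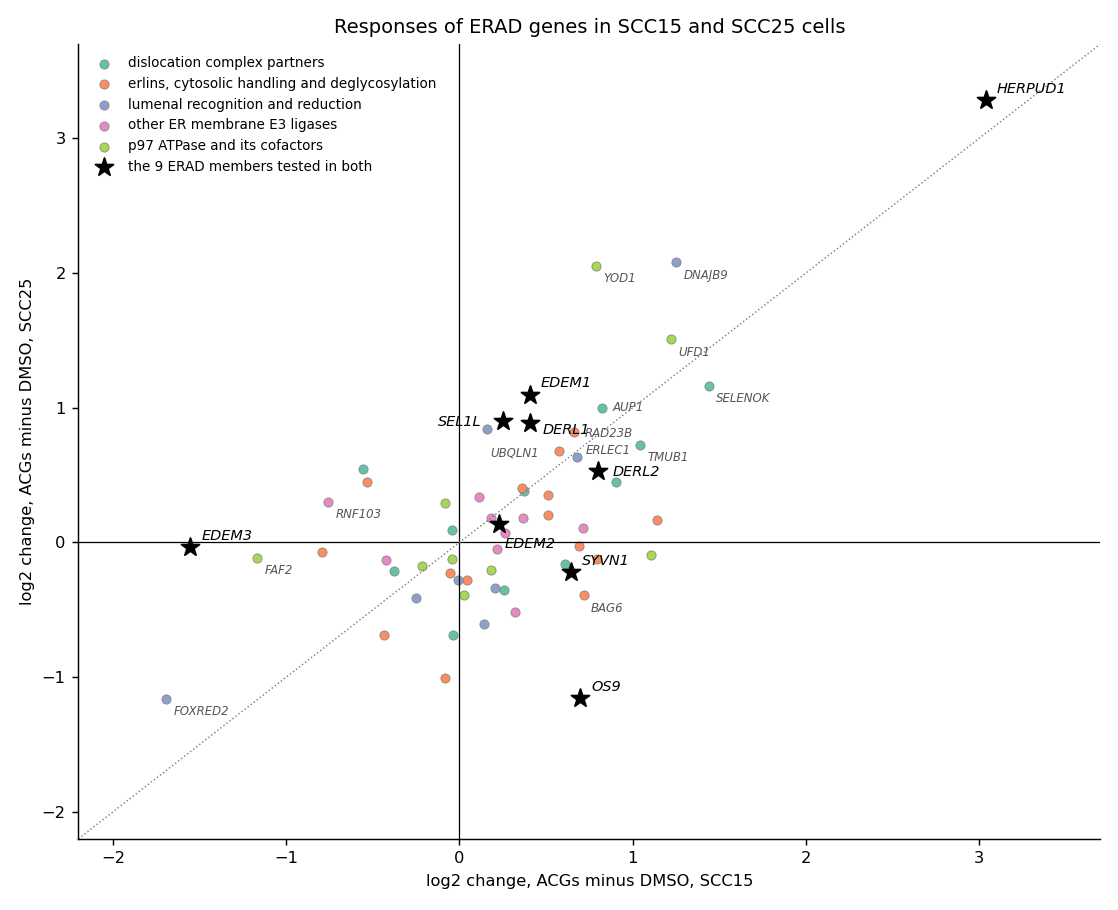
Log2 change (ACGs minus DMSO) in SCC15 against that in SCC25 for the 9 ERAD members tested in both lines (stars) and 52 other ERAD genes by role (circles), with a dotted line of equal change. HERPUD1 lies apart at 3.04 and 3.29, and OS9 and SYVN1 lie at the lower right, positive in SCC15 (0.20 and 0.15, not called, with equal library totals) and negative in SCC25.

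The protein-coding genes most like a member were found by the root mean square difference, over the 12 libraries, of log2 levels relative to the DMSO mean of the line, among 9698 genes with a mean of at least 100 in both tables. For HERPUD1 these were the chemokine gene CXCL3 (difference 0.119), the stress-inducible GADD45B (0.177) and CSF3, the gene of granulocyte colony-stimulating factor (0.233). For SYVN1 they were PPP1R26 (0.0329), PLCB3 (0.0564) and CPSF1 (0.0651), and for SEL1L MAP3K20 (0.0597), COL4A3BP (0.0632) and YAP1 (0.0687). The likeness is a description with no test.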

How the data were processed

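RNA-seq of 12 libraries (SCC15 and SCC25, ACGs or DMSO, 3 libraries a group) was re-analysed. Per the labels and methods, the authors aligned reads to GRCh38 with HISAT2 2.0.5, counted them with featureCounts 1.5.0-p3 and compared treatments with DESeq2. The strand setting of the counting is not given in the sources used here. The deposited signal is a normalized count: the authors divided each gene's count by the library's size factor, set per cell line (the SCC25 columns are named FPKM). Deposited group means, fold changes and p-values of the authors' comparison were not used. Multiplied by a recovered size factor, 100% of values came out whole (tolerance 0.01).

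Genes with a mean of at least 10 were tested on the scale log2(normalized count + 1) with limma 3.58.1 in R 4.3.3 (two-sided, eBayes with a mean trend) and Benjamini-Hochberg adjustment over all genes tested. The log2 changes from limma are on this scale and understate those of low genes. The 8.25-fold and 9.76-fold given for HERPUD1 are ratios of mean normalized counts. On the recovered reads, edgeR 4.0.16 called 4712 genes higher and 5168 lower in SCC15 and 6298 and 6506 in SCC25, and DESeq2 1.42.0 5067 and 4897, and 6093 and 6103. Other settings were a pseudocount of 0.1 or 10, no filter beyond a mean above 0, a minimum of 10 in every library, TMM, equal library totals, a replicate block, leaving out each library, and an absolute log2 change above 1. Floors of 3 reads cover counting error only. On simulated data with 200 genes changed by a log2 of 1, limma recovered 97.5% in each line, with 3.47% and 3.94% of calls false. The simulation gave all genes the same dispersion, changed few genes and held no outlying library like ACGs replicate 3 of SCC15. Its rates therefore need not hold for these data.

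The members and lists were chosen with earlier results of these data known, and the ratios between members after their values were seen. All members are named, and of the other ERAD genes up to 3 per role, those called in both lines with the largest mean absolute change. A result for 1 gene that this rule names is not reported here. MARCHF6, whose name was a date, was matched by identifier, and SVIP was not analysed here. Promoters and exon lengths came from RefSeq and GENCODE release 44.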

Additional observations from a re-analysis of the deposited data

Results flagged for a closer look

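The response to ACGs differed between SCC15 and SCC25 in the test of the difference itself (limma contrast, 12 libraries) for 6 of 9 ERAD members, against 52.2% of all genes tested. As SCC15 minus SCC25 on the log2 scale, the differences were 1.85 for OS9, 0.87 for SYVN1, -0.48 for DERL1, -0.65 for SEL1L, -0.69 for EDEM1 and -1.52 for EDEM3. OS9 and SYVN1 were called in opposite directions in the lines, at 0.70 and -1.16 for OS9 and 0.64 and -0.22 for SYVN1, and with equal library totals the SCC15 values were 0.20 and 0.15 and not past the threshold. EDEM3 was at -1.55 in SCC15 and -0.034 in SCC25, and SEL1L at 0.25 and 0.90. Over the alternatives that left out a library, the differences ranged from 1.76 to 1.95 for OS9 and from 0.76 to 1.01 for SYVN1.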

How the results depend on the processing

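Of 474 values recomputed for the members' responses and differences, 454 kept their direction and side of the threshold. The other 20 came from equal library totals, TMM, edgeR or a left-out library. Equal library totals reversed SEL1L (-0.25), DERL1 (-0.091), EDEM1 (-0.093) and EDEM2 (-0.27) in SCC15. They also reversed EDEM2 in SCC25 (-0.073) and the differences of DERL2 (-0.019) and EDEM2 (-0.20). This left 3 members called higher and 2 lower in SCC15, with 8 and 27 of the other ERAD genes, beside 2357 and 8032 of all 15902 genes. The shift of the median gene, which lowers every value, gives these moves. The difference of EDEM2 was -0.0027 without ACGs replicate 3 of SCC15, and EDEM3 in SCC25 was 0.0016 without DMSO replicate 1 and 0.012 without ACGs replicate 3. With an absolute log2 change above 1, the members called were 2 higher and 1 lower in SCC15, 2 higher and 1 lower in SCC25 and 2 for the difference. The other ERAD genes were 6 up and 2 down in SCC15 and 4 up and 2 down in SCC25. Over all genes this cut gave 1998 higher and 2320 lower of 15902 in SCC15, and 2293 and 2813 of 16539 in SCC25. For the difference it gave 1585 and 1527 of 14454. With 1 library left out at a time, 7 to 8 members were higher and 1 lower in SCC15, 5 to 6 higher and 2 lower in SCC25, and 6 to 7 differed. Of the other ERAD genes, 17 to 29 were higher and 7 to 12 lower in SCC15 and 21 to 25 and 18 to 20 in SCC25. Over all genes, these fits called 3902 to 6103 higher and 3693 to 5920 lower in SCC15, and 5995 to 6510 and 5861 to 6498 in SCC25. For the difference they called 3376 to 4699 and 3415 to 4825. SEL1L passed in SCC15 without ACGs replicate 3 (0.37), EDEM2 in SCC25 without DMSO replicate 2 (0.19) or ACGs replicate 3 (0.16), and EDEM3 in SCC25 with equal totals (-0.24).

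Same-numbered ACGs and DMSO libraries did not deviate together (correlations of -0.051 to 0.0078), so the number is only a name. The replicate block changed no call of a member, with 7 higher in SCC15, and moved calls over all genes from 4921 higher and 4773 lower to 4665 and 4451 in SCC15 and from 6335 and 6367 to 6294 and 6317 in SCC25. Depth limited DERL3 alone among the members, at 0 to 5 reads in SCC25.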
